A study of Homo sapiens with 6 samples.

Results

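The genes described here are 10 regulators and markers of the epithelial-mesenchymal transition (EMT), which the selection rule names: the drivers and mesenchymal markers VIM, ZEB1, ZEB2, SNAI1, SNAI2, FN1 and CDH2, and the epithelial guardians GRHL2, ESRP1 and ESRP2. Members were found by their symbol in the first column of the expression table. Of the 10, 8 had a row among the 27238 rows of the table, and no member's symbol was repeated. SNAI2 and CDH2 had no row and were not analysed here. The values come from QBC-939, a human cholangiocarcinoma (bile duct cancer) cell line grown in DMEM with serum. The control group was 3 libraries of cells given a scrambled shRNA, and the Bmi1 shRNA group was 3 libraries of cells given an shRNA against BMI1, each taken 48 h after treatment. The design text describes independent transfections, so the p-values measure the spread between transfections of a single line, and it calls the control reagent an siRNA where the treatment text calls it an shRNA. The number of different shRNA sequences is not stated in the labels.

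In EMT, epithelial cells give up their junctions and polarity and take on a mesenchymal shape and motility. The zinc finger proteins ZEB1, ZEB2, SNAI1 and SNAI2 bind E-boxes and repress epithelial genes such as CDH1, while vimentin (VIM), fibronectin (FN1) and N-cadherin (CDH2) are the products by which a mesenchymal state is usually read. GRHL2 is a grainyhead transcription factor that keeps junction genes active and opposes ZEB1, and ESRP1 and ESRP2 are RNA-binding proteins that set the epithelial splice forms of FGFR2, CD44 and other genes. BMI1, a subunit of Polycomb repressive complex 1, has been linked to EMT in other carcinomas, where it acts with TWIST1. Levels are given in FPKM, fragments scaled to the length of the transcript and the size of the library, so that genes can be compared per length.

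The FPKM of a library summed to between 332910 and 341268 in the control group and to between 352800 and 360371 in the Bmi1 shRNA group. The number of reads is not known, so no counting interval can be given. For BMI1 the controls held 6.65, 5.34 and 6.09 FPKM, against 1.49, 1.19 and 2.65 FPKM in treated libraries 1, 2 and 3. The mean fell to 29.5% of control, and the fall was 1.37 on the log2(FPKM + 1) scale (standard error 0.191; limma, adjusted p = 0.00162). All log2 fold changes given here are on that scale, which understates those of low genes. Every treated library lay below every control library, and library 3 kept the most BMI1. The label of the line was checked against markers: KRT19 lay between 195 and 291 FPKM and EPCAM between 161 and 184 FPKM over the 6 libraries, while the 4 of 8 fibroblast markers with a row summed to 0.365 to 0.452 FPKM in every library and the 2 of 4 endothelial markers to at most 0.0360 FPKM. Of the cholangiocyte markers KRT7 was lower, at 2.06 to 3.45 FPKM. The marker sums of the control and treated libraries overlapped for fibroblasts (0.397 to 0.416 and 0.365 to 0.452 FPKM).

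The members fell into an expressed set and a set near 0. FN1, SNAI1, GRHL2, ESRP1 and ESRP2 had a mean of at least 1 FPKM over the 6 libraries and were tested. VIM, ZEB1 and ZEB2 had a mean under 1 FPKM and count here as near 0. FN1 and ESRP2 fell with Bmi1 shRNA, to 60.7% and 63.4% of control, where 57.1% of all tested rows passed the test in either direction. ESRP2 did not pass once a trend in GC content and transcript length was removed (limma, adjusted p = 0.0544). SNAI1, GRHL2 and ESRP1 did not pass the test, and VIM was higher in 3 of 3 treated libraries at a level that stayed under 0.6 FPKM. Of rows with a mean under 1 FPKM, 10.5% had all treated libraries above all controls.

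**Figure D1:**
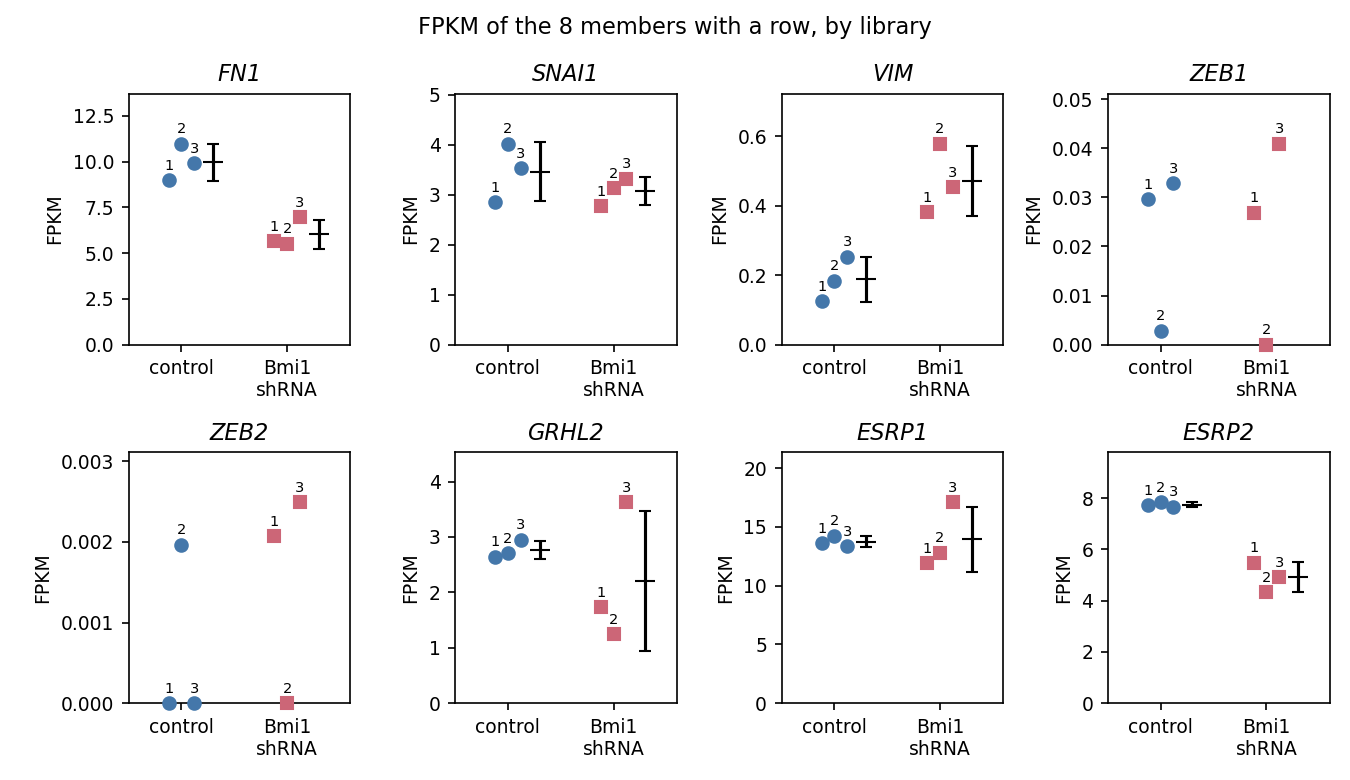
FPKM of each member with a row, on a linear axis from 0 that differs between panels; circles are control and squares Bmi1 shRNA libraries, numbered by replicate, with the mean and SD beside them (not drawn for ZEB1 and ZEB2, which are listed at 0 in some libraries). FN1 and ESRP2 are lower in all 3 treated libraries, and GRHL2 and ESRP1 are lower in libraries 1 and 2 and higher in library 3.

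By level per length, the order in the control libraries was ESRP1 (13.7 FPKM on average), FN1 (9.96), ESRP2 (7.74), SNAI1 (3.46), GRHL2 (2.76), VIM (0.187), ZEB1 (0.0218) and ZEB2, which was listed at 0 in 2 of 3 libraries. Neighbours in this order did not overlap in the control group, except SNAI1 with GRHL2, whose libraries spanned 2.84 to 4.02 and 2.64 to 2.95 FPKM. The most abundant member, ESRP1, stood above 89.8% of all rows by its mean over the 6 libraries, FN1 above 84.6%, ESRP2 above 82.0%, SNAI1 above 73.8% and GRHL2 above 70.6%. VIM, which many mesenchymal cells hold as one of their most abundant mRNAs, stood above 47.9% of rows. In the Bmi1 shRNA libraries the order of means was the same, and GRHL2 (1.24 to 3.63 FPKM) again overlapped SNAI1 (2.76 to 3.31 FPKM), as ZEB1 did ZEB2.

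FN1, the extracellular matrix glycoprotein fibronectin, was the driver-side gene with the highest level and the clearest change. Controls 1, 2 and 3 held 8.99, 10.98 and 9.90 FPKM, against 5.66, 5.51 and 6.96 FPKM after Bmi1 shRNA. The groups did not overlap, and the treated library with the highest FN1 was library 3. The mean went from 9.96 ± 0.999 to 6.04 ± 0.797 FPKM (SD, n = 3 each), and FN1 fell by 0.64 on the log2(FPKM + 1) scale (standard error 0.105, 95% interval -0.89 to -0.39; limma, adjusted p = 0.00292). Such calls were common in these libraries: 57.1% of the 11016 tested rows passed the threshold of 0.05 on the adjusted p (28.6% upward and 28.5% downward), and the groups did not overlap for 65.4% of them (32.3% higher, 33.1% lower). Of tested rows, 4.58% had a lower fold change than FN1. An exact two-sided permutation test of FPKM gave p = 0.1, the smallest that 3 against 3 libraries allow. In bulk RNA, fewer cells with a transcript and less of it per cell cannot be told apart.

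Fold changes in these libraries went with the GC content of the transcript (Spearman's rho -0.473 across 10225 tested rows, which are not independent replicates), so the GC content of the 5 tested members is given with their values. The FN1 transcript has 50.2% GC, and tested rows within 2 percentage points of that had a median log2 fold change of -0.16. With a spline in GC content and transcript length taken out of each library, FN1 had a log2 fold change of -0.27 (standard error 0.0710; limma, adjusted p = 0.0275), in a fit that called 39.7% of rows (19.1% higher, 20.6% lower). The direction and the call of FN1 held there, at a smaller size.

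The start regions of FN1 and VIM are shown because these are the matrix and filament genes of the list. FN1 was called lower, while VIM was higher at a level of at most 0.578 FPKM. The call of VIM did not hold with the replicate block or with some libraries left out. Whether the sequences bear on these changes was not tested. Each run is the 250 bases before the RefSeq start in GRCh38.p14, written 5′ to 3′ along the gene. FN1 lies on the reverse strand of chromosome 2 (215360440 to 215436172 in GRCh38, ENSG00000115414.18) and the run is chr2:215436069-215436318. VIM lies on the forward strand of chromosome 10 (17228259 to 17237593, ENSG00000026025.15) and the run is chr10:17227991-17228240. Capitals mark the cyclic AMP response element TGACGTCA.
FN1: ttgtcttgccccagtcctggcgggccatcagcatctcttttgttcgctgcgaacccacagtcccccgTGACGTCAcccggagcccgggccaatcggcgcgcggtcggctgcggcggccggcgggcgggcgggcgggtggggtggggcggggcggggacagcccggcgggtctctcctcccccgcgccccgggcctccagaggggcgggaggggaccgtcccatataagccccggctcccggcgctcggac
VIM: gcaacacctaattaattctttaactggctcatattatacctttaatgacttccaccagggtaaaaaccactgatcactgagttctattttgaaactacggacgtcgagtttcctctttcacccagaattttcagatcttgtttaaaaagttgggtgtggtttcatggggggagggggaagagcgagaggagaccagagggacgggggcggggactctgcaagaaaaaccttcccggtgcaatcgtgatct
The 2 windows differ in composition: over 300 bases, which include the first 50 of the transcript, FN1 has 76.7% GC and 38 CpG pairs, and VIM has 48% GC and 10 CpG pairs, where the median over 35116 windows is 58.7% GC. The FN1 window holds TGACGTCA once, 183 bases before the start, as do 1.85% of all windows of this length in at least 1 copy. The E-box CACCTG, bound by the SNAI and ZEB factors and searched on both strands (CAGGTG), is in neither window and in 20.6% of all windows. No such window was used here for SNAI1, GRHL2, ESRP1 or ESRP2.

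SNAI1, the Snail repressor, was expressed in every library and did not pass. Controls held 2.84, 4.02 and 3.52 FPKM, against 2.76, 3.13 and 3.31 FPKM after Bmi1 shRNA. The groups overlapped, with control library 1 inside the treated range. The log2 fold change was -0.13 with a 95% interval of -0.40 to 0.14 (limma, adjusted p = 0.363), and a fall of the size seen for FN1 lies outside that interval. The exact permutation test gave p = 0.4. The SNAI1 transcript has 58.2% GC, and the fold change was -0.08 with the trend removed (adjusted p = 0.567).

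VIM, the intermediate filament protein of mesenchymal cells, was near 0 in all libraries. Controls held 0.125, 0.184 and 0.253 FPKM, against 0.380, 0.578 and 0.453 FPKM after Bmi1 shRNA, so the groups did not overlap. The mean rose from 0.187 ± 0.0640 to 0.470 ± 0.0999 FPKM (SD, n = 3 each), a ratio of 2.51, when all rows were fitted without a filter (log2 fold change 0.31, standard error 0.0679; limma, adjusted p = 0.0252). That fit called 23.4% of 27238 rows (12.6% higher, 10.8% lower). Of rows with a mean under 1 FPKM, the groups did not overlap for 18.2%, and 10.5% had all treated libraries above all controls. The call ended with the replicate number as a block (adjusted p = 0.0520) and without any of 4 libraries: control 1 (0.0837), control 2 (0.0913), Bmi1 shRNA 2 (0.0603) or Bmi1 shRNA 3 (0.0690). The antisense gene VIM-AS1 overlaps VIM on the other strand and measured 0.167, 0 and 0.165 FPKM in control and 0.182, 0.263 and 0.204 FPKM in treated libraries. The sources used here do not say if reads were counted by strand, so reads of the pair cannot be told apart.

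ZEB1 and ZEB2, the zinc finger homeobox repressors of CDH1, were the lowest members. ZEB1 measured 0.0296, 0.00284 and 0.0328 FPKM in control and 0.0269, 0 and 0.0409 FPKM in treated libraries. ZEB2 was listed at 0 in 3 of 6 libraries and reached at most 0.00249 FPKM. Neither differed between the groups beyond the spread of the libraries (limma without a filter, adjusted p = 0.983 and 0.945), and at these levels no change of either could be read from the files. ZEB1-AS1, which overlaps ZEB1 on the other strand, lay higher than ZEB1 itself, between 0.540 and 0.858 FPKM.

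The miR-200 family represses ZEB1 and ZEB2 in epithelial cells, and BMI1 is also a known target of miR-200c. The mature forms are printed because they fall into 2 seed groups, encoded at 2 loci, of which the table measures a host transcript of the chromosome 12 locus. Capitals mark the seed, bases 2 to 8, in the RefSeq sequences (GRCh38.p14).
hsa-miR-200b-3p: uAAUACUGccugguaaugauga
hsa-miR-200c-3p: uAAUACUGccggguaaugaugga
hsa-miR-429: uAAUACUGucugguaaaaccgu
hsa-miR-200a-3p: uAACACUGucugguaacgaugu
hsa-miR-141-3p: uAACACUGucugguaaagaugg
The first 3 share the seed AAUACUG and the last 2 the seed AACACUG. The host gene of miR-200c and miR-141, MIR200CHG, measured 4.47, 2.97 and 3.12 FPKM in control and 7.42, 5.93 and 5.65 FPKM in treated libraries. All treated libraries were above all controls, and the gene rose by 0.71 on the log2 scale (limma, adjusted p = 0.00755; 0.49 and 0.0322 with the GC and length trend removed). At the chromosome 1 locus the hairpin gene MIR429 did not pass (limma, adjusted p = 0.963). MIR200A of the same locus, named after its values were seen, went the other way at a level near 0, with 0.178, 0.322 and 0.207 FPKM in controls and listed at 0 in all 3 treated libraries, and was called lower in the fit without a filter (limma, adjusted p = 0.00735). That fit called 23.4% of all rows (10.8% lower), and of rows with a mean under 1 FPKM the groups did not overlap for 18.2%. For the hairpin rows MIR200B, MIR200C and MIR141, also near 0, the groups overlapped. None of these was called there (limma, adjusted p = 0.884, 0.506 and 0.271), so MIR200A does not stand for its locus. Poly(A) libraries do not measure mature miRNAs, so nothing is known here of their levels.

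Among the guardians, ESRP2 fell. The controls held 7.72, 7.84 and 7.67 FPKM, against 5.48, 4.32 and 4.91 FPKM after Bmi1 shRNA, with no overlap. Its control libraries were the tightest of any tested member, with a coefficient of variation of 1.12%, against 11.9% in the treated ones. The mean fell from 7.74 ± 0.0870 to 4.91 ± 0.583 FPKM (SD, n = 3 each), with a log2 fold change of -0.57 (standard error 0.0818, 95% interval -0.77 to -0.37; limma, adjusted p = 0.00179; exact permutation p = 0.1). Leaving out any single library kept the call of ESRP2. The transcript has 59.6% GC, and rows within 2 points of that had a median log2 fold change of -0.23. With the GC and length trend removed ESRP2 had a log2 fold change of -0.25 and was not called (standard error 0.0840; limma, adjusted p = 0.0544), while using the median GC content and length of a gene's transcripts gave -0.43 and a call (adjusted p = 0.00607). NFATC3 overlaps ESRP2 on the other strand (chromosome 16, 68229111 to 68238102 for ESRP2) and measured 2.02 ± 0.0921 and 2.19 ± 0.406 FPKM in control and treated libraries (SD, n = 3 each), a log2 fold change of 0.07 that was not called (limma, adjusted p = 0.570).

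ESRP1, the paralog of ESRP2, kept its mean level but not its spread. Its level was 13.6, 14.2 and 13.4 FPKM in controls, against 11.9, 12.8 and 17.1 FPKM after Bmi1 shRNA. Treated libraries 1 and 2 lay below every control and library 3 above every control. Over all libraries the log2 fold change of ESRP1 was 0.0043 (95% interval -0.30 to 0.31; limma, adjusted p = 0.980), and without library 3 it was -0.14 (95% interval -0.30 to 0.016; adjusted p = 0.107). With 42.8% GC, ESRP1 belongs to a range of GC content in which tested rows had a median log2 fold change of 0.23.

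The ratio of the paralogs was higher in every treated library than in any control, in FPKM as deposited. The ratio and the sum of the pair were not among the planned results, and the ratio carries the fall of ESRP2 given above. For single tested rows the groups did not overlap in 65.4%. The ratio of ESRP1 to ESRP2 was 1.76, 1.82 and 1.74 in controls, against 2.17, 2.96 and 3.48 after Bmi1 shRNA, which did not overlap (1.77 ± 0.0383 and 2.87 ± 0.657, SD, n = 3 each; exact permutation p = 0.1, the smallest possible). The control ratios lay within a narrow range, and the treated ones were spread widely above it. The summed FPKM of the pair was 21.3, 22.1 and 21.0 in control and 17.4, 17.1 and 22.0 in treated libraries, so that library 3 reached the control sum and libraries 1 and 2 did not (exact permutation p = 0.3). ESRP1 made up the larger part of the pair in all 6 libraries. The transcripts differ in GC content (42.8% and 59.6%). With the GC and length trend removed the log2 fold changes lay close together, at -0.18 for ESRP1 and -0.25 for ESRP2, where they were 0.0043 and -0.57 before. The ratio was not tested with the trend removed.

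GRHL2, the grainyhead factor, was split among the treated libraries. Controls were close together at 2.64, 2.70 and 2.95 FPKM, against 1.74, 1.24 and 3.63 FPKM after Bmi1 shRNA. As for ESRP1, libraries 1 and 2 were below all controls and library 3 was above all controls. The coefficient of variation was 5.92% in control and 57.1% in treated libraries, the widest of the tested members. Over the 3 against 3 libraries the log2 fold change was -0.30 with a 95% interval of -0.91 to 0.30 (limma, adjusted p = 0.339; exact permutation p = 0.5). Without library 3, GRHL2 fell by 0.60 (95% interval -0.87 to -0.34; limma, adjusted p = 0.00668), in a fit that called 55.6% of tested rows (27.1% higher, 28.5% lower). Each of the 6 libraries was left out in turn, and this was the only such fit that called GRHL2. The transcript has 49.8% GC, and with the GC and length trend removed from all 6 libraries the log2 fold change was -0.0078 (limma, adjusted p = 0.982).

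**Figure D2:**
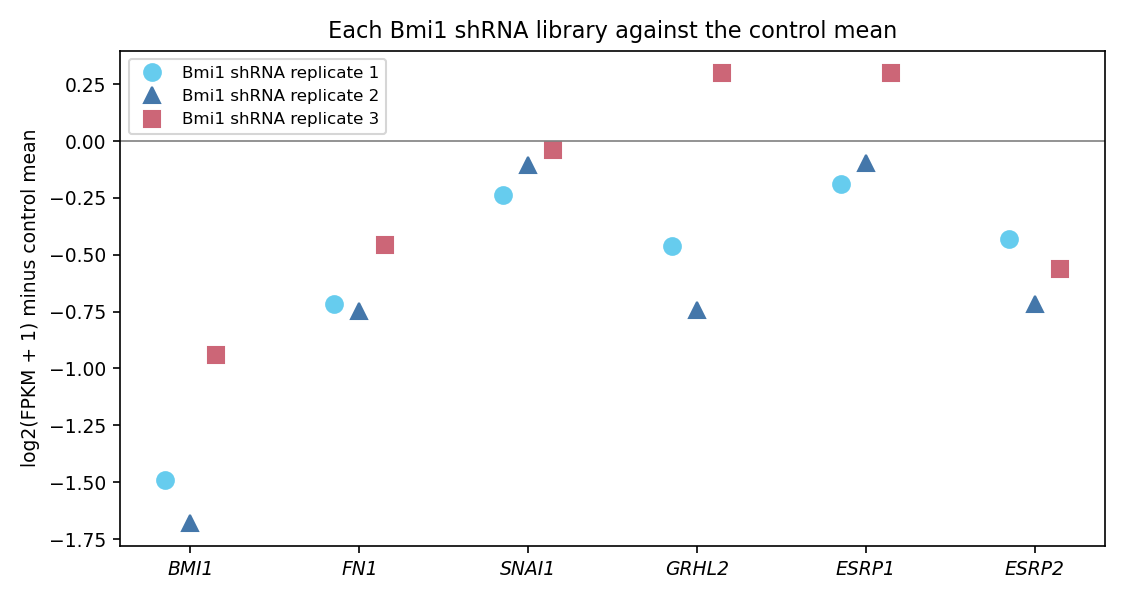
Difference of each Bmi1 shRNA library from the mean of the 3 controls, on the log2(FPKM + 1) scale, for BMI1 and the 5 tested members. Library 3 (squares) stands above 0 for GRHL2 and ESRP1 (both 0.30), while all libraries stand below 0 for BMI1, FN1 and ESRP2.

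The pattern of GRHL2 and ESRP1, with libraries 1 and 2 under and library 3 over all controls, was found in 129 of 11016 tested rows (1.17%). It was defined from the values of these members after they were seen, so its share is a description and does not test them. Among the 88 tested genes of the related lists described here it was found in 3, GSK3B, BTRC and FBXO11. On the log2(FPKM + 1) scale, library 3 exceeded the mean of libraries 1 and 2 by 0.90 for GRHL2, 0.44 for ESRP1, 0.27 for FN1, 0.13 for SNAI1 and 0.01 for ESRP2, where the median over tested rows was 0.04. Of tested rows, 0.654% stood as high in library 3 as GRHL2 and 3.03% as ESRP1. BMI1 itself stood higher in that library by 0.64, as did 1.42% of rows. Whether the remaining BMI1 has a part in the GRHL2 and ESRP1 values was not tested, since a single library shows them.

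**Figure D3:**
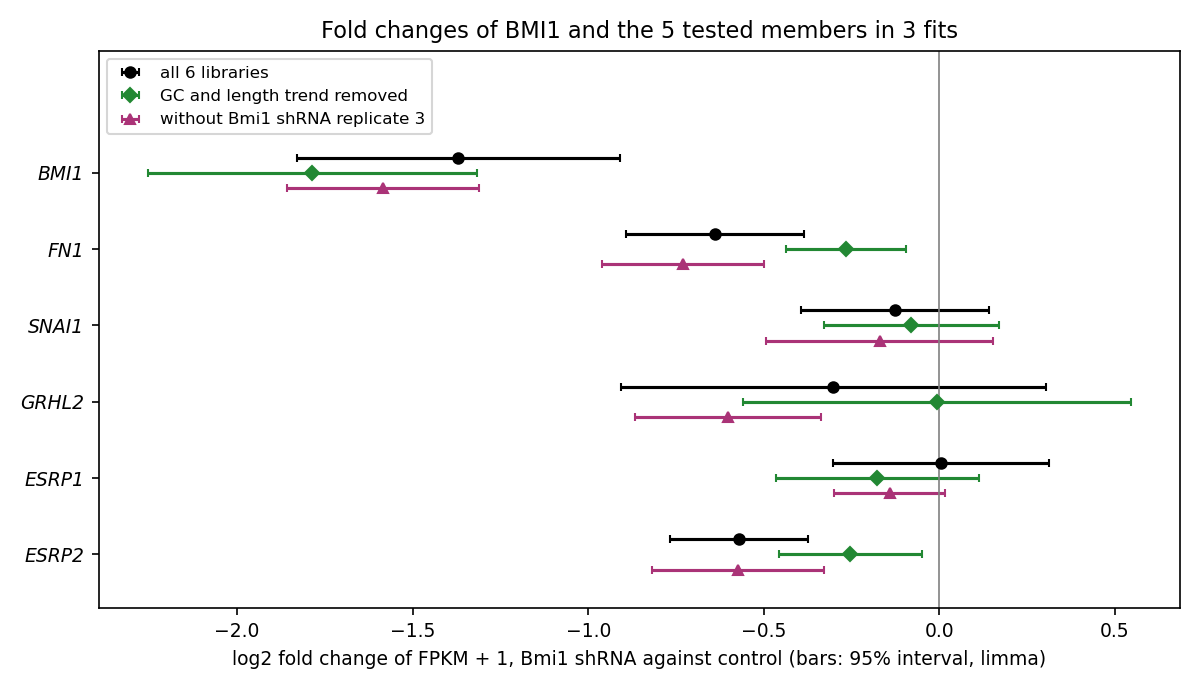
Log2 fold change of FPKM + 1 with its 95% interval (limma) for BMI1 and the 5 tested members, from all 6 libraries (circles), with the GC and length trend removed (diamonds) and without Bmi1 shRNA replicate 3 (triangles). The intervals of BMI1, FN1 and ESRP2 exclude 0 in each fit, and that of GRHL2 does so only without replicate 3. With the trend removed ESRP2 was not called all the same (limma, adjusted p = 0.0544).

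Across the 5 tested members, 2 were called lower and 0 higher, with 3 not called. Of all tested rows 28.5% were called lower and 28.6% higher (57.1% in either direction), and 5 genes are too few to tell their share from these. At an unadjusted p under 0.05 the same 2 passed. FN1 fell on the driver side and ESRP2 on the guardian side, by 0.64 and 0.57. The difference between the 2 sides was not tested.

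ESRP1 and ESRP2 were each set beside the 97 tested genes of the related lists and markers to find the gene most like it over the 6 libraries. For ESRP2 it was the lysosomal protein CD68 (Pearson r = 0.991), and for ESRP1 the ubiquitin ligase subunit BTRC (r = 0.971). The libraries form 2 groups, so genes that differ between the groups, as ESRP2 and CD68 do, correlate in this way. ESRP1 and BTRC were not called between the groups, and both were highest in Bmi1 shRNA library 3 (17.1 and 2.11 FPKM). These values are a description.

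The related lists give the setting of the members, and the bars of calls by list show them beside all tested rows. Of all tested rows 28.5% were called lower and 28.6% higher, and with the GC and length trend removed 20.6% and 19.1%. The counts of each list stand beside these shares. Other EMT factors were mostly near 0 or had no row: of 15, 6 had no row (TWIST1, TWIST2, PRRX1, FOXC2, GSC and LEF1) and 4 lay under the filter. Of the 5 tested, FOXQ1 fell from 46.2 ± 3.67 to 26.8 ± 0.297 FPKM and HMGA2 from 2.63 ± 0.0738 to 1.91 ± 0.101 FPKM, SOX4 rose from 21.5 ± 1.33 to 27.4 ± 0.985 FPKM (SD, n = 3 each), and ETS1 and TCF3 did not pass (limma, adjusted p = 0.0795 and 0.413). ETS1 was called lower with the trend removed (-0.36, adjusted p = 0.0125), with 2 of the 3 other scalings and without Bmi1 shRNA 3 (0.0399), and HMGA2 lost its call with median transcript values (0.113). Of 25 mesenchymal structural genes, 6 had no row, 14 were under the filter and 5 were tested. Of these 2 rose, the calcium-binding protein S100A4 from 40.3 ± 0.483 to 102 ± 6.95 FPKM and tropomyosin TPM1 from 3.23 ± 0.0800 to 5.71 ± 1.04 FPKM, and CALD1, TPM2 and MMP14 did not pass. With the trend removed the metalloproteinase MMP14 was called as well (log2 fold change 0.45 in place of 0.13; limma, adjusted p = 0.00315), which made 3 higher. All 3 tested integrin subunits of fibronectin receptors rose (ITGB1 from 12.7 ± 1.92 to 26.3 ± 5.10 FPKM, ITGAV and ITGB6), but their transcripts are poor in GC (median 40.0%), and with the trend removed ITGB1 alone was called and ITGB6 took the opposite sign (-0.01), as ITGAV did with median transcript values (-0.15). With the replicate block added to the trend removal ITGB1 was not called either (limma, adjusted p = 0.0598). ITGA5, the partner of ITGB1 in the main fibronectin receptor, was under the filter.

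**Figure D4:**
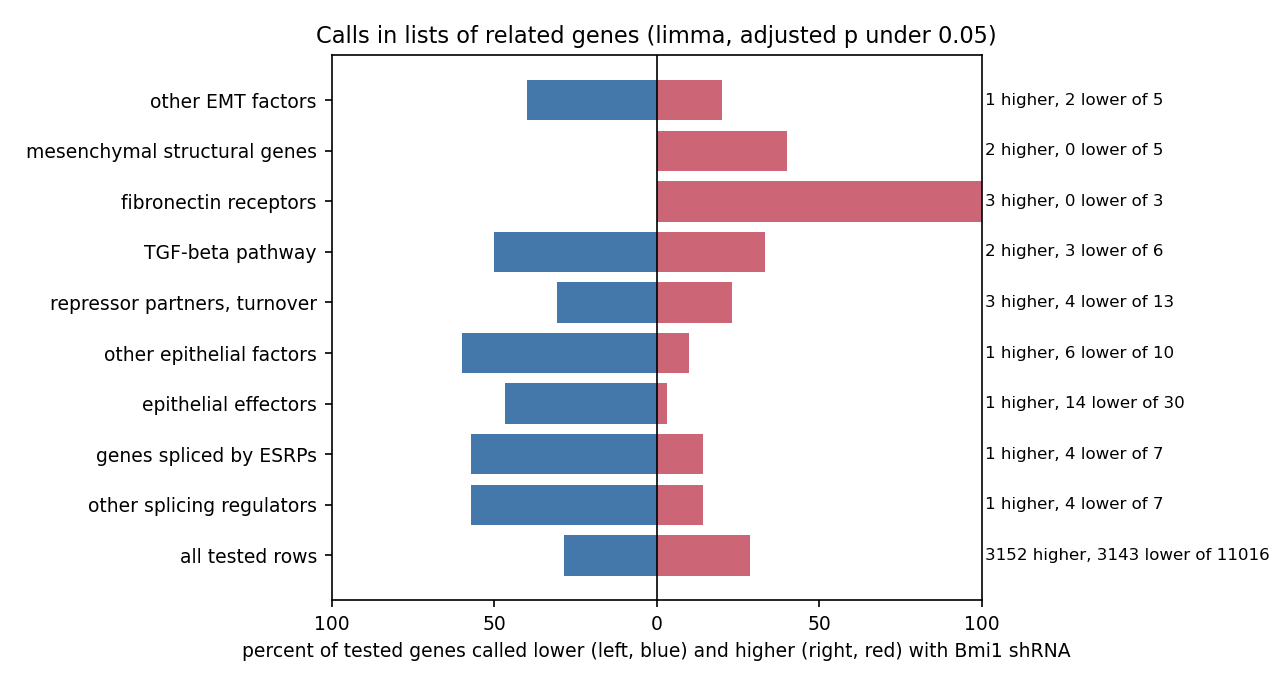
Percent of the tested genes of each list called lower (left) and higher (right) after Bmi1 shRNA by limma, with the counts at the right and all 11016 tested rows in the bottom bar. The epithelial effectors hold 14 lower and 1 higher of 30, where the table as a whole has 28.5% lower and 28.6% higher.

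The other epithelial factors, which act with the guardians, were lower more often than higher. Of 10 tested, 6 fell and 1 rose, where 28.5% of all tested rows fell and 28.6% rose. The median log2 fold change of the list was -0.36, where that of all tested rows was -0.02. OVOL1 and OVOL2, repressors of ZEB1, fell from 5.33 ± 0.408 to 3.59 ± 0.369 and from 7.41 ± 0.661 to 4.81 ± 0.604 FPKM, and KLF5 and RBM47 fell by 0.43 and 0.53 on the log2 scale. The gene that rose was EHF, an ETS factor, which was named after its values were seen (log2 fold change 0.35; limma, adjusted p = 0.0250), and no gene of this list was called higher without control 1 or 3 or Bmi1 shRNA 1 or 2. After trend removal 5 fell and 1 rose, FOXA1 in place of EHF, and the median was -0.08. That fit called 20.6% of all its rows lower and 19.1% higher. Of 30 tested epithelial effectors, 14 fell, 1 rose and 15 did not pass (median -0.24; 13 lower and 2 higher, median -0.20, with the trend removed). PKP3, CDH3, KRT19 and PRSS8, of desmosomes, cadherin junctions, keratin filaments and membrane proteolysis, fell to between 58.6% and 73.5% of control, and MAL2, a transport protein of the apical membrane, rose to 152%. The rise of MAL2, whose transcript has 39.4% GC, was 0.59 on the log2 scale and 0.16 with the trend removed (limma, adjusted p = 0.0309). With the replicate block added to the trend removal MAL2 was not called (limma, adjusted p = 0.0904).

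The splice forms that ESRP1 and ESRP2 set cannot be seen in a table of genes, but the levels of genes they act on can. Of 7 tested, CD44, ARHGEF11, EXOC7 and SCRIB fell and ENAH rose, where 28.5% of all tested rows fell and 28.6% rose. The call of ENAH ended without control 1 or 3 or Bmi1 shRNA 2 or 3 (limma, adjusted p up to 0.109). CD44 went from 30.9 ± 2.34 to 18.4 ± 1.39 FPKM (SD, n = 3 each). With the trend removed CD44 and ARHGEF11 stayed lower and 5 were not called, in a fit that called 20.6% of rows lower and 19.1% higher. Of 7 other splicing regulators of EMT, PTBP1, RBFOX2, SRSF1 and CELF1 fell and MBNL1 rose, beside the same shares of all tested rows. After trend removal 3 fell and 0 rose.

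In the TGF-beta pathway, which induces SNAI1 and ZEB1 in other cells, 3 of 6 tested genes fell and 2 rose, where 28.5% of all tested rows fell and 28.6% rose. The transducer SMAD3 went from 9.27 ± 0.446 to 4.78 ± 0.393 FPKM, its feedback inhibitor SMAD7 from 3.29 ± 0.453 to 1.78 ± 0.270 FPKM and the receptor TGFBR2 from 13.97 ± 3.38 to 8.15 ± 0.306 FPKM, while SKIL, a repressor of SMADs, rose from 1.15 ± 0.179 to 3.00 ± 0.233 FPKM (SD, n = 3 each). The call of TGFBR2 ended with the trend removed (limma, adjusted p = 0.0617), when 2 genes of the list were lower and 2 higher. That fit called 20.6% of all its rows lower and 19.1% higher. The receptor TGFBR1 was called higher (limma, adjusted p = 0.0478), but not with any 1 of the controls or Bmi1 shRNA 2 left out (adjusted p up to 0.115), and median transcript values turned its sign (-0.05). Of 13 partners and turnover factors of the SNAI and ZEB repressors, 4 fell and 3 rose (30.8% and 23.1%, near the shares of all tested rows), among them CTBP2, the corepressor bound by ZEB1, from 11.1 ± 0.410 to 6.63 ± 1.52 FPKM, and HDAC2, a deacetylase recruited by SNAI1, up from 2.96 ± 0.0698 to 5.94 ± 0.242 FPKM. After trend removal 2 of them fell and 2 rose, beside the same shares of all rows of that fit. Over all 88 tested genes of these lists 16 rose and 37 fell (18.2% and 42.0%), where 28.6% and 28.5% of all tested rows did. With the trend removed 14 rose and 30 fell, where 19.1% and 20.6% of all rows of that fit did. Without Bmi1 shRNA 3, 14 rose and 40 fell, where 27.1% and 28.5% of all tested rows did. The call of SIN3A, also lower, ended without control 2 or 3 or Bmi1 shRNA 1 or 2 (adjusted p up to 0.0728), and CTBP1 took the opposite sign with the trend removed (0.03).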

How the data were processed

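Poly(A) RNA of 6 QBC-939 cultures was sequenced as paired-end libraries, per the labels' protocols, which also name adipose material that none of these samples is. The deposited values are FPKM, made by the authors; the tools named in the submitters' processing notes are StringTie 1.3.0, HISAT2 2.0 and Bowtie 0.12.2, and the build named there, mm8, is a mouse build although the symbols are human, so the build is not settled. Column names Sc and Sh were taken as scrambled and Bmi1 shRNA. Reads could not be recovered: at most 5.74% of rows under 0.05 FPKM shared the commonest ratio to control 1 (within 0.1%).

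Limma 3.58.1 (R 4.3.3) was run on log2(FPKM + 1), that is with a pseudocount of 1. It covered 11016 rows, those averaging 1 FPKM or more, with a single group term, a trended variance prior and Benjamini-Hochberg adjustment over all rows; called means an adjusted p under 0.05. Fold changes on this scale understate those of low genes. GC content and length were those of the longest GENCODE 29 transcript, protein-coding where there is one (92.8% of tested rows), fitted with natural splines of 5 degrees of freedom each (length on a log2 scale); removing the trend also removes true changes that go with either. Positions are GENCODE 29 (GRCh38), used for the genes' names and not for the reads. The fit was also run on simulated rows with independent normal noise, few of which held a shift. Such rows differ from these data, where most tested rows were called, so that run does not vouch for the calls here.

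Members and lists were chosen with earlier results of these data known. Named genes were BMI1, the members, in each list up to 5 tested genes with the smallest p, and the gene most like each member with a mean of at least 5 FPKM; others are said to be chosen after their values were seen. A few genes named by this rule are counted but not reported here. Of the markers of other cell types, the leukocyte marker CD68 fell from 11.5 to 7.52 FPKM, the hepatocyte marker TTR rose from 6.11 to 18.7 FPKM, and of the intestinal markers LGALS4 rose from 397 to 568 FPKM and VIL1 fell from 21.1 to 17.9 FPKM. Alternatives covered the pseudocount, filter, scaling, replicate block, trend removal, variance prior and each library left out.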

Additional observations from a re-analysis of the deposited data

How the results depend on the processing

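Of the tested members, FN1 kept its direction and call in every alternative run, and SNAI1 was called in none. The pseudocounts of 0.1 and 0.01, the scalings and the variance prior without a trend changed no member's call. Filtering at a mean of 5 FPKM gave 3478 called rows of 5641 and 8 list genes higher (16 in all 6 libraries with the filter at 1). With the GC and length trend removed 4059 rows and 1 member, FN1, were called, and with the replicate block as well 3140 rows, 1 member and 24 list genes lower (37 before); 10225 rows were tested there, and the cause was not tested. ESRP2 was then at -0.25 (adjusted p = 0.0544, and 0.0557 with the block). The replicate block alone left both member calls (FN1 adjusted p = 0.00934, ESRP2 0.00826) and ended that of VIM (log2 fold change 0.308), whose fits with a block or a library left out were added after the data were seen. The block gave 5658 called rows, and the numbers did not pair the libraries: deviations of same-numbered libraries correlated at 0.0037, -0.079 and -0.023 across genes. Without each library in turn VIM lay between 0.255 and 0.352 and was not called in 4 of 6 fits (0.269 without control 1, 0.306 without control 2, 0.255 without Bmi1 shRNA 2, 0.315 without Bmi1 shRNA 3); FN1 lay between -0.731 and -0.574, ESRP2 between -0.640 and -0.497, SNAI1 between -0.230 and -0.0381, GRHL2 between -0.602 and -0.0806 and ESRP1 between -0.142 and 0.101. GRHL2 was called only without Bmi1 shRNA replicate 3 (-0.602). The counts then ran from 5226 to 6122 rows, 2 to 3 members, 12 to 15 list genes higher and 34 to 40 lower.

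Signs turned for values that were not called: SNAI1 with medians over transcripts (0.108); ESRP1 with every library brought to a sum of 1000000 (-0.0835), with the trend removed (-0.177, with and without the block), with medians (-0.156) and without control 1 (-0.00147) or control 3 (-0.0143) or Bmi1 shRNA 3 (-0.142). That scaling moved the median of tested rows to -0.102, from -0.0171, and the share of calls that were higher to 41.7%, from 50.1%. Of 45 other named genes 10 kept their direction but lost their call with the trend removed, and 16 with the block as well. Among them, signs turned with the trend removed, and equally with the block added, for CALD1 (-0.112), CTBP1 (0.0329), ITGB6 (-0.0130), MIR429 (0.189) and TCF3 (0.255, called, adjusted p = 0.0154). With medians they turned for ITGAV (-0.152), ITGB6 (-0.0298), MIR429 (0.193), TCF3 (0.0697), TGFBR1 (-0.0458) and TPM2 (0.0974). MIR429 also turned with upper quartile scaling (0.00483) and without control 2 (0.238) or Bmi1 shRNA 2 (0.213), and its lowest value was -0.217, without control 3. Depth is unknown, so how far it limits VIM, ZEB1 and ZEB2 cannot be given.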

Other observations

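CLDN4, a tight junction gene repressed by the SNAI and ZEB factors and chosen after its values were seen, held 115, 0.687 and 86.4 FPKM in controls, against 5.67, 5.19 and 0.866 FPKM after Bmi1 shRNA. Its control libraries differ from each other by more than any change of a tested member, and it was not called (log2 fold change -2.60; limma, adjusted p = 0.210).

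CDH1, the E-cadherin gene and textbook target of the drivers, was also chosen after its values were seen. It measured 1.75, 2.20 and 1.93 FPKM in control and 0.869, 1.04 and 1.09 FPKM in treated libraries, with no overlap (log2 fold change -0.56; limma, adjusted p = 0.00203; -0.33 and 0.0147 with the GC and length trend removed). EPCAM, at 164 ± 2.55 and 169 ± 12.3 FPKM (SD, n = 3 each), did not pass (adjusted p = 0.581).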
